A study of Homo sapiens with 6 samples.

Results

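ABC transporters are membrane pumps that use ATP to move lipids, metabolites and drugs, and 25 of the 7746 circular RNA junctions listed in the pancreatic cancer line PANC-1 and its Gemcitabine resistant derivative came from genes of this family. They were taken as every row whose host gene symbol begins with ABCA, ABCB, ABCC, ABCD, ABCE, ABCF or ABCG, which found 4 of 3348 host genes. ABCC1 held 12 junctions, ABCC4 held 11, and ABCD3 and ABCG2 held 1 each. The rule reads the symbol alone, and the family was picked with earlier results of these data known.

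PANC-1 is an established human pancreatic ductal carcinoma cell line, and its 3 libraries are the parental controls. The resistant line PANC-1-GR, also with 3 libraries, is 1 derived line, grown from PANC-1 under rising Gemcitabine from 0.1 to 200 µg/ml over 40 weeks and kept with periodic additions of 10 µg/ml. Every difference between the lines therefore compares 1 selected population with its parent. Nothing in the labels says whether replicates are separate cultures, and the p-values below measure only a spread between libraries that may be technical. Each value is a count of reads across a back-splice junction, the point where the end of a downstream exon is joined to the start of an upstream one. The 6 libraries held between 9222 and 13689 such reads, and levels are given as reads per 10000 listed junction reads of the library. In bulk RNA, fewer cells with a circle and fewer copies of it per cell cannot be told apart. Of 12 duct and ductal carcinoma markers, 3 had a listed circle (MET, KRT19 and ITGA2), and none of the 9 fibroblast, 7 blood cell, 5 endothelial and 8 acinar or endocrine markers had one. Circles alone are a weak check of cell identity, and linear mRNA was not analysed here.

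A typical ABC transporter has a pair of membrane-spanning domains and a pair of nucleotide-binding domains that bind and hydrolyse ATP. ABCC1 encodes MRP1, which exports glutathione conjugates, leukotriene C4 and several anticancer drugs and carries an additional membrane domain at its amino end. ABCC4 encodes MRP4, which lacks that additional domain and exports cyclic nucleotides, prostaglandins and nucleoside monophosphate analogs. ABCG2 (BCRP) and ABCD3 (PMP70, in the peroxisome membrane) are transporters with a single domain of each kind that work as dimers. A circle of coding exons is a product of the same primary transcript as the mRNA and is not itself a measure of the transporter protein.

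Few ABC genes had a listed circle. RefSeq names 45 protein-coding genes under these symbols, and the 4 with a circle make 8.89% of them, against 3017 of 20056 protein-coding symbols (15%) over the genome. By subfamily these were 2 of 11 ABCC genes, 1 of 4 ABCD genes and 1 of 5 ABCG genes. None of the 12 ABCA, 9 ABCB, 1 ABCE and 3 ABCF genes had a listed junction, and so none was listed for ABCB1, which encodes the efflux pump MDR1. CFTR, TAP1 and TAP2, ABC genes under other symbols, had none either. For MDR1 the study reports higher expression in PANC-1-GR by Western blot, a protein measure that circle counts do not give. Every listed junction reached 2 reads in at least 1 library, so that a circle under this level would not be seen here. The 4 genes are among the longer of the family: ABCC4 spans 281617 bp and ranks 2, ABCC1 spans 193911 bp and ranks 5, ABCG2 ranks 8 and ABCD3 ranks 10 of 45 in the RefSeq annotation of GRCh38.p14. ABCA13, the longest, had no listed circle.

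The 2 MRP genes were rich in different circles rather than in reads of any one. The median host gene had 1 junction, and 44 of the 3348 (1.31%) had 11 or more. ABCC1 ranked 172 and ABCC4 ranked 165 among host genes by summed junction reads, while the most read ABC junction, with 18 reads over the 6 libraries, ranked 653 among all junctions. Of the 25 junctions, 24 were exonic, and each of these 24 matched a run of whole exons of the transcript of the same RefSeq identifier in GENCODE 29, with the same span and spliced length. ABCC1 and ABCC4 have 31 exons each in these transcripts, and exons are numbered from the 5′ end. Predicted lengths of the exonic circles ran from 177 to 1629 nucleotides with a median of 598.5, against a median of 480 for all exonic circles. The length was a multiple of 3 in 13 of the 24 (54.2%), against 36.5% of all exonic circles. The circBase catalogue had an ID for 17 of the 25 (68%), against 59.7% of all junctions.

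**Figure D1:**
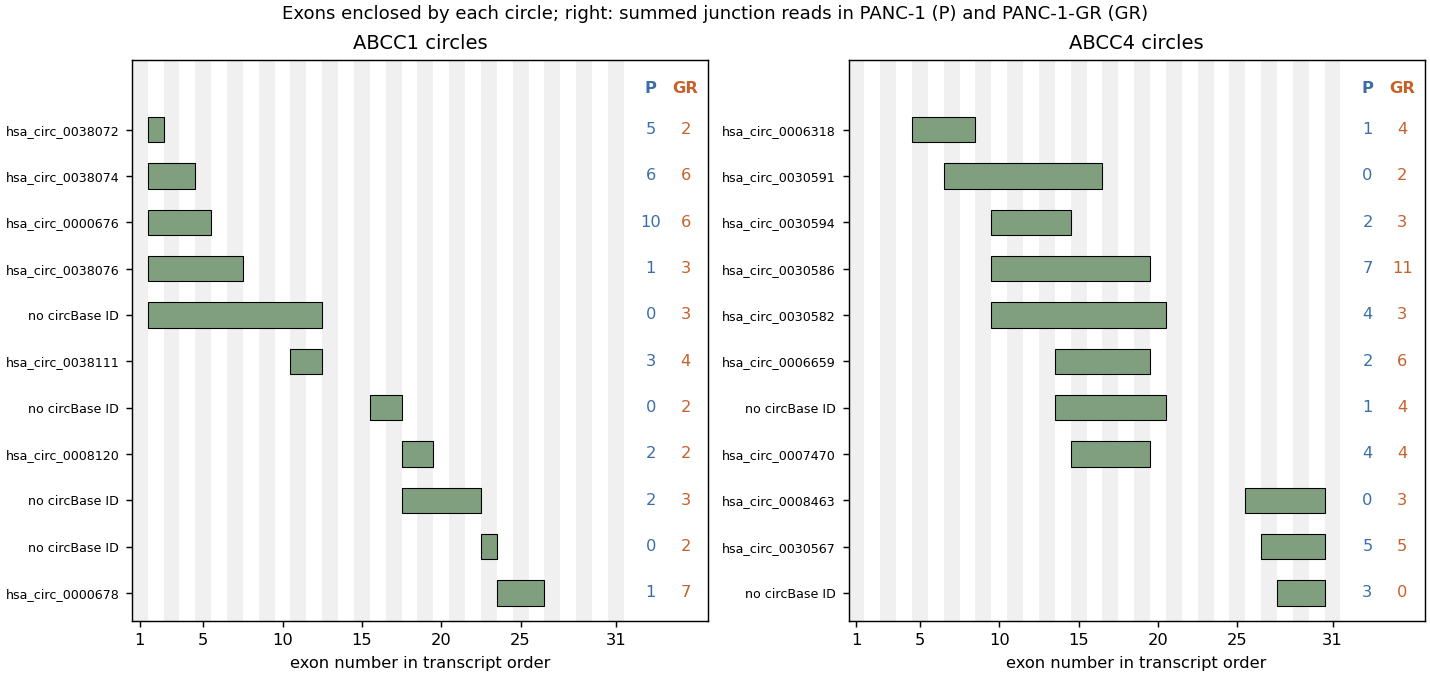
Exon spans of the ABCC1 and ABCC4 circles, with exon number in the 31-exon transcript of each gene on the horizontal axis and 1 bar for each circle with its summed reads in the 3 PANC-1 and the 3 PANC-1-GR libraries. The first 5 ABCC1 bars start at exon 2 and end at different exons, while ABCC4 bars share ends at exons 19, 20 and 30; the ABCC1 junction that matched no exon run is not drawn.

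Back-splice sites were reused within both genes. In ABCC1, 8 of 12 junctions shared a splice site with another junction of the gene, and in ABCC4 9 of 11 did. Over the 18 host genes with 11 or 12 listed junctions, 85.5% of their 207 junctions did so, and this reuse is therefore not particular to the transporters. The sequences across the junctions that recur in the results show the sharing directly. They are written 5′ to 3′ from the GENCODE 29 transcripts, with the last 20 bases of the last exon in lower case and the first 20 bases of the first exon in capitals, so that the back-splice lies where the case changes.
ABCC1 exon 2, hsa_circ_0038072: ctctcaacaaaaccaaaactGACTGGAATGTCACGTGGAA
ABCC1 exons 2 to 4, hsa_circ_0038074: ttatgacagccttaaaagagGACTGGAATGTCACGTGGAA
ABCC1 exons 2 to 5, hsa_circ_0000676: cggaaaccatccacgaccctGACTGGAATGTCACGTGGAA
ABCC1 exons 11 to 12, hsa_circ_0038111: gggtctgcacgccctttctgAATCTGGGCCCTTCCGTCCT
ABCC1 exons 24 to 26, hsa_circ_0000678: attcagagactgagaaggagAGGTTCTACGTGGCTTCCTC
ABCC4 exons 10 to 19, hsa_circ_0030586: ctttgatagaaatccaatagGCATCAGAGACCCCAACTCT
ABCC4 exons 14 to 19, hsa_circ_0006659: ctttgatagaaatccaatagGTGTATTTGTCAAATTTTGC
ABCC4 exons 15 to 19, hsa_circ_0007470: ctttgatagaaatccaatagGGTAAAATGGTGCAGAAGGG
ABCC4 exons 10 to 20, hsa_circ_0030582: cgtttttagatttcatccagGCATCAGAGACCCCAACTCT
The first 3 ABCC1 sequences have the same capitals and differ in the lower-case bases, because 1 acceptor at exon 2 is joined to the ends of different exons. In ABCC4 the arrangement is doubled: 3 sequences share the lower-case end of exon 19 with different capitals, and the exon 10 capitals appear after both the exon 19 and the exon 20 ends.

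Summed over the family, 63 reads were found in the parental line and 94 in the resistant line. By library the level was 20.9, 15.3 and 21.2 per 10000 for the parental libraries and 30.7, 28.2 and 23.9 for the resistant ones. Every PANC-1-GR library lay above every PANC-1 library, with means of 19.1 ± 3.34 and 27.6 ± 3.44 (SD, n = 3 each). The ratio of pooled reads was 1.46, with a 95% Clopper-Pearson interval of 1.05 to 2.05 that covers counting error only and leaves out the spread between libraries. This sum is a description and was not tested. A junction was listed only if some library reached 2 reads. The 6 junctions read in PANC-1-GR alone thus entered the sum through that line, and 1 read in PANC-1 alone entered through PANC-1. Other junctions with parental reads, such as hsa_circ_0000678 and hsa_circ_0006318, also reached 2 reads only in PANC-1-GR libraries. No junction with resistant reads reached 2 reads only in PANC-1 libraries. Over the junctions that reached 2 reads in both lines, the pooled reads of the lines would be alike. Without the junctions read in 1 line alone, PANC-1-GR replicate 3 would fall below PANC-1 replicate 3, and the lines would overlap. The difference was small in the better covered circles. The 3 junctions with at least 3 reads in at least 3 libraries stood at 7.10 ± 2.68 in parental and 7.16 ± 2.69 in resistant libraries, and the other 22 stood at 12.02 ± 1.21 and 20.4 ± 5.18. Grouped by their reads over both lines together, the 11 junctions with at least 6 reads stood at 15.1 ± 3.68 and 17.3 ± 1.19, and the 14 with fewer at 4.07 ± 2.36 and 10.3 ± 4.11, and in both groups of junctions the lines overlapped.

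Most junctions had a higher mean in the resistant line, and this count was lowest without 1 library. The mean level was higher in PANC-1-GR for 20 of the 25 junctions and lower for 5, against 48.9% higher over all junctions. Without PANC-1-GR replicate 1, the library with the most junction reads, 14 were higher and 8 lower, against 39.9% higher over all junctions. Reads were found in PANC-1-GR libraries alone for 6 junctions and in PANC-1 libraries alone for 1, against 19.6% and 20.9% of all junctions. Each of these 7 junctions had 2 or 3 reads in all. More of the 20 higher junctions, hsa_circ_0000678 among them, had parental reads but reached 2 reads only in PANC-1-GR libraries. Their higher mean follows in part from how they were listed, so that the count is a description and no test of the family.

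**Figure D2:**
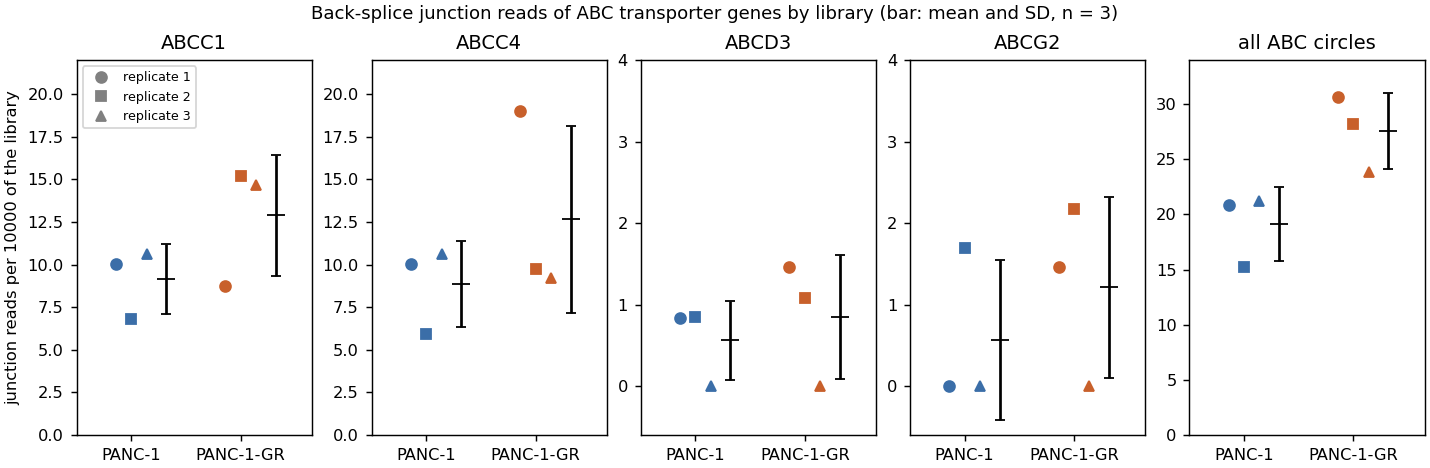
Junction reads per 10000 listed junction reads of each library, summed by host gene and over all ABC circles, with a scale of its own for ABCD3 and ABCG2 and for the sum; points are libraries, and bars are the mean and SD of 3 libraries of a line. ABCC1 and ABCC4 lie near the same levels and overlap between the lines, with PANC-1-GR replicate 1 far above the other libraries for ABCC4, ABCD3 and ABCG2 have 0 to 2 reads in each library, and over all ABC circles the lines do not overlap. Without the junctions read in 1 line alone, the sums of the lines would overlap.

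For ABCC1 circles together the parental libraries held 12, 8 and 10 reads and the resistant libraries 12, 14 and 16. As levels these were 10.0, 6.79 and 10.6 against 8.77, 15.2 and 14.7 per 10000. PANC-1-GR replicates 2 and 3 were above all PANC-1 libraries and replicate 1 was inside their range. The means were 9.14 ± 2.06 and 12.9 ± 3.57, and edgeR's quasi-likelihood test over 1093 host genes gave a log2 fold change of 0.49 (SE 0.38, Benjamini-Hochberg adjusted p = 0.982). Leaving out single libraries moved the log2 fold change between 0.31 and 0.69. The sum includes junctions that reached 2 reads only in PANC-1-GR libraries. Without those junctions, the resistant line would have fewer ABCC1 reads than the parental line.

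ABCC4 circles together had 12, 7 and 10 reads in the parental and 26, 9 and 10 in the resistant libraries. The levels were 10.0, 5.94 and 10.6 against 19.0, 9.76 and 9.18 per 10000. PANC-1-GR replicate 1 alone stood above the PANC-1 range, with reads at 10 of the 11 ABCC4 junctions, where the other libraries had reads at 4 to 8. With means of 8.86 ± 2.54 and 12.6 ± 5.51, the edgeR log2 fold change was 0.61 (SE 0.38, adjusted p = 0.938). Without PANC-1-GR replicate 1 it was 0.08 (SE 0.48), and without PANC-1-GR replicate 3 it was 0.80.

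Neither gene was called, a call being a fold change of at least 2 with an unadjusted p of at most 0.05. The edgeR fit called 0 of these 2 host genes, against a background of 3.66% of the 1093 tested. In that fit 0 of the 2 had an unadjusted p under 0.05, which 5.76% of all host genes had, and neither had one in edgeR's exact test, DESeq2 or limma-voom. With no filter on low counts, 0 of the 4 ABC host genes were called, against 2.45% of 3348. In levels the order of the genes was ABCC1, ABCC4, then ABCG2 and ABCD3. A junction read is counted at 1 splice site whatever the length of the circle, so that the order is one of back-splice reads and not of RNA mass. ABCC1 and ABCC4 did not differ beyond the spread of their libraries in either line, nor did ABCG2 and ABCD3, while every library had more reads for each of the MRP genes than for ABCG2 or ABCD3.

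ABCC1 lies on the plus strand of chromosome 16, and its circles fell into those that start at exon 2 and those that start further on. The 5 that start at exon 2 share position 16101673 (hg19) and begin at codon 17 of 1531, in the part that encodes the additional amino-terminal membrane domain of MRP1. The most read, hsa_circ_0000676 (chr16:16101673-16110478), joined exons 2 to 5 into 567 nucleotides and codons 17 to 205. It had 3, 2 and 5 reads in parental against 1, 3 and 2 in resistant libraries, and was the only ABC circle with a read in all 6 libraries. The lines overlapped, and the edgeR log2 fold change was -0.74 (SE 0.83, adjusted p = 0.978).

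The next, hsa_circ_0038074 (chr16:16101673-16108485), joined exons 2 to 4 into 441 nucleotides. It had 3, 3 and 0 reads in the parental and 1, 3 and 2 in the resistant libraries. The lines overlapped, with a log2 fold change of -0.03 in edgeR (SE 0.99, adjusted p = 0.988), whose sign turned under several alternatives. Exon 2 circularised alone in hsa_circ_0038072 (chr16:16101673-16101849, 177 nucleotides), the shortest ABC circle, with 1, 0 and 4 reads in parental against 0, 0 and 2 in resistant libraries. Both lines had libraries without a read of it. Another, hsa_circ_0038076, joined exons 2 to 7 with 4 reads in all, and a circle without a circBase ID joined exons 2 to 12 with 3 reads, all in PANC-1-GR replicate 1.

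The exonic circles that start further on lie over the core of the transporter. The most read of these, hsa_circ_0000678 (chr16:16215832-16219768), joined exons 24 to 26 into 429 nucleotides and codons 1131 to 1273, toward the end of the last membrane-spanning domain. It had 0, 1 and 0 reads in the parental and 2, 2 and 3 in the resistant libraries. Every PANC-1-GR library was above every PANC-1 library, at 0.283 ± 0.490 and 2.13 ± 0.648 per 10000. The circle reached the 2 reads needed for listing only in PANC-1-GR libraries, so that it was listed through the line where it was higher. The ratio of pooled reads was 6.87, but counting error alone allowed 0.883 to 310. The circle did not pass the filter on low counts, and in the edgeR fit without that filter its log2 fold change was 2.44 (SE 1.42, adjusted p = 0.696).

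A second recurrent circle, hsa_circ_0038111 (chr16:16146581-16150152), joined exons 11 and 12 into 297 nucleotides, codons 461 to 559. It had 2, 1 and 0 reads in parental against 1, 2 and 1 in resistant libraries, and the lines overlapped. The other 5 had 2 to 5 reads each and lay at exons 16 to 17, 18 to 19 (hsa_circ_0008120), 18 to 22 and 23 and, for a junction listed as sense overlapping at chr16:16235030-16236799, at no run of whole exons. Exons 16 and 17 encode part of the first nucleotide-binding domain.

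**Figure D3:**
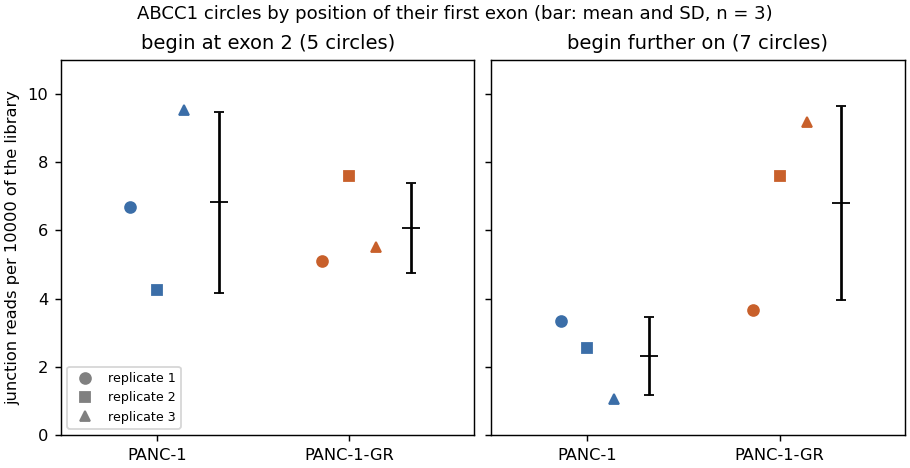
ABCC1 junction reads by library, split between circles that start at exon 2 (left) and circles that start further on (right), as reads per 10000 listed junction reads; points are libraries, with the mean and SD of 3. Exon 2 circles overlap between the lines, the others are higher in every PANC-1-GR library than in any PANC-1 library, by a small margin for PANC-1-GR replicate 1 (3.65 against 3.34). Without the 3 of these others that were read in PANC-1-GR alone, the lines would overlap.

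Split in this way, the 2 sets of ABCC1 circles differed between the lines to unlike degrees. Circles that start at exon 2 had 8, 5 and 9 reads in the parental and 7, 7 and 6 in the resistant libraries. Their levels overlapped, at 6.82 ± 2.65 and 6.07 ± 1.33 per 10000, with a pooled ratio of 0.892 (0.462 to 1.71, counting error only). The 7 that start further on had 4, 3 and 1 reads in parental against 5, 7 and 10 in resistant libraries. Those lines did not overlap, at 2.32 ± 1.16 and 6.81 ± 2.85 per 10000, with a pooled ratio of 2.70 (1.16 to 7.01). The exon 2 circles thus took 66.7%, 62.5% and 90.0% of the ABCC1 reads of the parental libraries and 58.3%, 50.0% and 37.5% of those of the resistant ones, a difference of means of -24.4 percentage points that ran from -29.7 to -16.0 with single libraries left out. This split was chosen after the values were seen, and it has no test. In the further set, the circles of exons 16 to 17 and of exon 23 and the sense overlapping junction had 2 reads each. All reads of each came from 1 PANC-1-GR library, and each was listed only through that library. Without them PANC-1-GR replicate 1 would fall inside the PANC-1 range, both in the level of the further set and in the exon 2 share. The lines would then overlap in both. In the further set, hsa_circ_0000678 and hsa_circ_0008120 had parental reads but also reached 2 reads only in PANC-1-GR libraries.

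The share of a gene's reads taken by its most read junction was tested for both MRP genes. In ABCC1, hsa_circ_0000676 took 25%, 25% and 50.0% of the gene's reads in the parental libraries and 8.33%, 21.4% and 12.5% in the resistant ones. All PANC-1 shares were above all PANC-1-GR shares, with means of 33.3 ± 14.4% and 14.1 ± 6.69%. The difference was -19.2 percentage points, and the exact permutation test, two-sided, gave p = 0.1, the smallest p that 3 against 3 libraries allow, and 0.2 adjusted over the 2 genes. Over pooled reads the shares were 33.3% (95% Clopper-Pearson interval 17.3 to 52.8) and 14.3% (5.43 to 28.5), and these intervals overlapped. The ABCC1 total in these shares includes junctions that reached 2 reads only in PANC-1-GR libraries. With those junctions left out, the shares of the lines would overlap, so that the test depends on the listing.

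**Figure D4:**
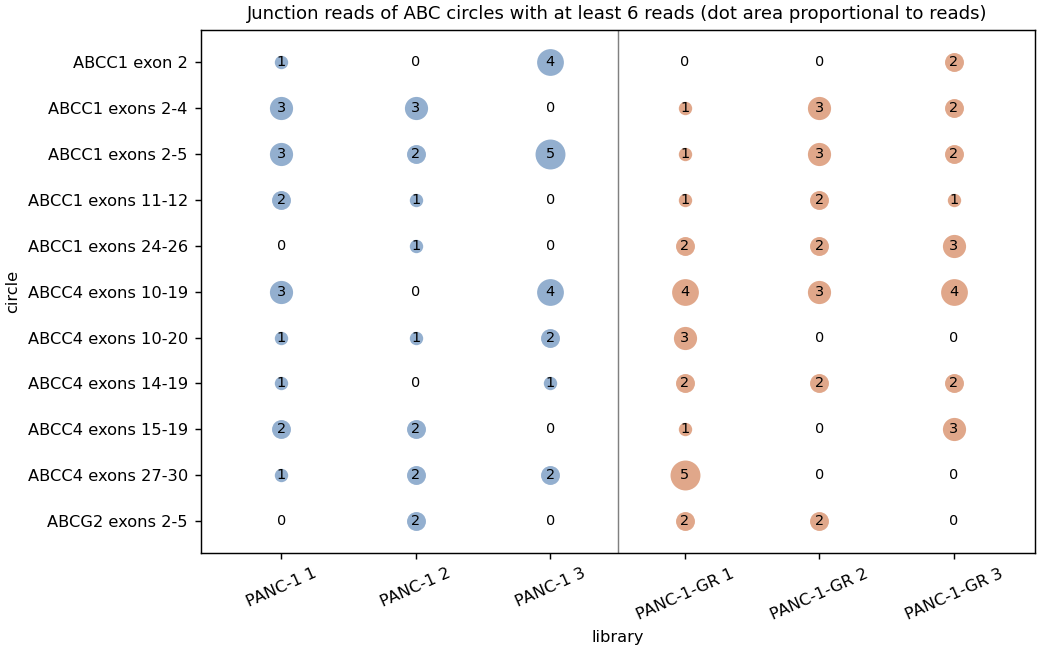
Reads of each ABC circle with at least 6 reads over the 6 libraries, by library; rows are circles, columns are libraries, and the number and the area of each dot are the junction reads. The counts run from 0 to 5, and only hsa_circ_0000676 has a read in all 6 libraries.

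ABCC4 lies on the minus strand of chromosome 13, where a circle's first exon is at its higher coordinate. Its circles gathered around exons 10 to 20 and around exons 26 to 30, stretches that take in coding sequence of the first and second nucleotide-binding domains of MRP4. The most read ABC circle of all, hsa_circ_0030586 (chr13:95813443-95840796), joined exons 10 to 19 into 1192 nucleotides and codons 422 to 819. It had 3, 0 and 4 reads in the parental and 4, 3 and 4 in the resistant libraries. PANC-1 replicate 2 was the low library and the other 5 were alike. The edgeR log2 fold change was 0.58 (SE 0.78, adjusted p = 0.978), and without PANC-1 replicate 2 it was -0.02. Its share of ABCC4 reads was 25%, 0% and 40.0% for the parental and 15.4%, 33.3% and 40.0% for the resistant libraries, a difference of 7.91 percentage points for which the exact permutation test gave p = 0.7 (adjusted 0.7), which became -2.93 points without PANC-1 replicate 2.

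Circles that share the exon 19 end had 6, 2 and 5 reads in parental against 7, 5 and 9 in resistant libraries over 3 junctions. Within this set, hsa_circ_0006659 (chr13:95813443-95822882, exons 14 to 19, 728 nucleotides) had 1, 0 and 1 reads in the parental and 2, 2 and 2 in the resistant libraries. Its lines did not overlap, at 0.632 ± 0.559 and 1.82 ± 0.354 per 10000, but it reached the 2 reads needed for listing only in PANC-1-GR libraries. The pooled ratio was 2.94 (0.527 to 29.8, counting error only), and the edgeR fit without a filter gave a log2 fold change of 1.44 (SE 1.31, adjusted p = 0.696). The third of the set, hsa_circ_0007470 (chr13:95813443-95818621, exons 15 to 19, 631 nucleotides), had 2, 2 and 0 reads against 1, 0 and 3, and the lines overlapped.

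A second circle starts at exon 14 as well and runs on to exon 20, with 0, 1 and 0 reads in parental against 1, 2 and 1 in resistant libraries. Together the circles that start at exon 14 had 1, 1 and 1 reads in the parental and 3, 4 and 3 in the resistant libraries. The lines did not overlap, and the pooled ratio of 3.27 had a counting interval of 0.842 to 18.5. Both circles reached 2 reads only in PANC-1-GR libraries, so that the whole sum was listed through the line where it was higher. Sums by shared site were looked at for 5 ABCC4 sites after the circles' values were known, and have no test. At the other 4 sites the lines overlapped, with pooled ratios of 1.59 at the exon 19 end, 1.37 at the exon 20 end, 0.982 at the exon 30 end and 1.28 at the exon 10 start. The 3 circles that start at exon 10 had 5, 1 and 7 reads against 9, 4 and 4, and overlapped. Among these, hsa_circ_0030582 (chr13:95768176-95840796, exons 10 to 20, 1272 nucleotides) had 1, 1 and 2 reads in parental against 3, 0 and 0 in resistant libraries.

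At the 3′ part of ABCC4, 3 circles share the end of exon 30, the last exon but 1. The most read, hsa_circ_0030567 (chr13:95686859-95705438, exons 27 to 30, 504 nucleotides, codons 1123 to 1290), had 1, 2 and 2 reads in the parental and 5, 0 and 0 in the resistant libraries. All its PANC-1-GR reads came from replicate 1, while each PANC-1 library had some. The circle of exons 28 to 30 had 2, 1 and 0 parental reads and no resistant ones, and hsa_circ_0008463, of exons 26 to 30, had no parental reads and 2, 1 and 0 resistant ones. Of the other ABCC4 circles, hsa_circ_0006318, of exons 5 to 8, had 1, 0 and 0 reads against 4, 0 and 0, hsa_circ_0030594, of exons 10 to 14, had 1, 0 and 1 against 2, 1 and 0, and hsa_circ_0030591, of exons 7 to 16, had 2 reads, both in PANC-1-GR replicate 1. PANC-1-GR replicate 1 was thus the highest library for several ABCC4 circles at different sites, which was not tested.

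Both of the smaller transporters had a single circle from their 5′ exons. In ABCG2 on the minus strand of chromosome 4, a circle without a circBase ID (chr4:89052213-89061166) joined exons 2 to 5 into 550 nucleotides, from within the 5′ untranslated region through codon 177 of 655, so that it holds the start codon and part of the nucleotide-binding domain. It had 0, 2 and 0 reads in parental against 2, 2 and 0 in resistant libraries. In ABCD3 on the plus strand of chromosome 1, hsa_circ_0013232 (chr1:94924163-94946162) joined exons 2 to 9 into 717 nucleotides, codons 37 to 276 of 659. It had 1, 1 and 0 reads in the parental and 2, 1 and 0 in the resistant libraries. The lines overlapped for both genes, and the pooled ratios of 1.96 (0.281 to 21.7) and 1.47 (0.169 to 17.6) show that a difference of several fold in either direction was not detectable at this depth.

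Over single circles, 3 of the 25 could be tested among 969 junctions with at least 3 reads in at least 3 libraries, namely hsa_circ_0030586, hsa_circ_0038074 and hsa_circ_0000676. The edgeR test called 0 of these 3, against a background of 4.23% over all 969. None of the 3 had an unadjusted p of at most 0.05, which 5.06% of all 969 had, and none did in edgeR's exact test, DESeq2 or limma-voom. With no filter, 0 of 25 were called, against 1.60% of all 7746 junctions, and again 0 had p under 0.05. The smallest adjusted p of any of the 969 junctions was 0.653. The lines did not overlap for 2 of the 25 junctions (8%), hsa_circ_0000678 and hsa_circ_0006659, both higher in PANC-1-GR, where 4.73% of all 7746 junctions did not overlap in either direction and 2.67% were higher in PANC-1-GR. Both circles reached the 2 reads needed for listing only in PANC-1-GR libraries, so that they were listed through the line where they were higher.

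**Figure D5:**
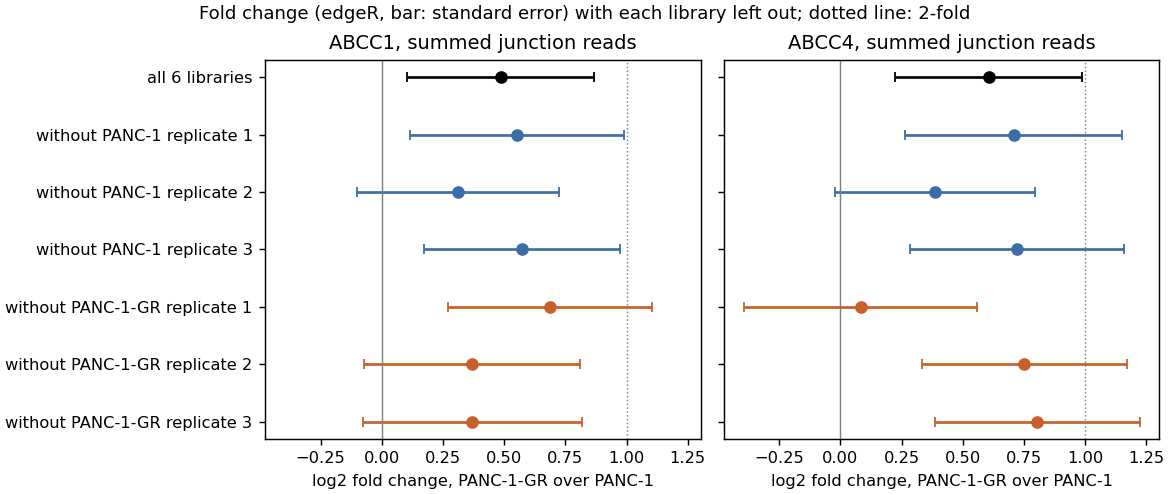
Log2 fold change (PANC-1-GR against PANC-1) of the summed ABCC1 and ABCC4 circles from edgeR with all 6 libraries and with each left out in turn; points are estimates, bars are SE and the dotted line marks a 2-fold change. ABCC1 stays between 0.31 and 0.69, and ABCC4 falls to 0.08 without PANC-1-GR replicate 1. Both sums include junctions listed only through PANC-1-GR libraries.

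Circles of genes from lists related to Gemcitabine, to the cargo of these pumps or to the regulation of ABC genes were listed at unequal shares, against the 15% of all protein-coding symbols. A list of 33 genes was drawn up for Gemcitabine transport and metabolism. It also takes in TOP1, a DNA topoisomerase, and POLA1, a DNA polymerase subunit, which neither transport nor metabolise the drug. Of the 33, 8 had a listed circle (24.2%) and 3 could be tested as host genes, of which 0 were called. DCTD, deoxycytidylate deaminase, had 13 parental and 15 resistant reads, TOP1 had 16 and 15, and NT5C2, a nucleotidase, had 9 and 3 (edgeR log2 fold change -1.51, SE 1.14). Of 27 genes of glutathione and leukotriene C4 supply, whose conjugates MRP1 exports, only GCLM, a subunit of glutamate-cysteine ligase, had a listed circle (3.70%), with 3, 2 and 1 reads in parental against 1, 0 and 0 in resistant libraries. Of 27 phosphodiesterase and cyclase genes, which set the cyclic nucleotides that MRP4 exports, 5 had a circle (18.5%), 4 were tested and 0 were called, with PDE8A at 31 and 30 reads and PDE10A at 20 and 19. Of 24 regulators of ABC gene expression, 7 had a circle (29.2%), 4 were tested and 0 were called, with FOXO3 at 25 and 33 reads, PPARG at 25 and 27 and NFE2L2 at 15 and 12. The median log2 fold changes of the tested genes were -0.08, -0.17 and 0.25 for the Gemcitabine list, cyclic nucleotides and regulators, against 0.0013 over all host genes tested. That of the Gemcitabine list is the value of TOP1.

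The levels of ABCC1 and ABCC4 circles did not follow each other over the 6 libraries (Pearson r = -0.10). Among 526 host genes with at least 30 reads, those whose summed level was most like that of ABCC1 were NRIP1 (r = 0.96), MGA (0.95) and FOXK2 (0.88), and those most like ABCC4 were TRIP12 (0.96), ARHGEF12 (0.93) and PLEKHG2 (0.92). These correlations run over 6 libraries that share their totals and their line, and the highest of 526 is high by choice, so that they are a description only.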

How the data were processed

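For each circRNA, back-splice read counts deposited by the authors were used for 3 PANC-1 and 3 PANC-1-GR libraries, with hg19 positions, and the log2 CPM values that the authors made with edgeR were left unused. The submitters' notes name CASAVA 1.8 and BWA without their roles, and for the junction caller the sources used here give no name. The extraction text of the labels speaks of tissue and plasma, while sample labels name the cell lines, which were followed. Lines and replicate numbers came from the titles. The rows without a host gene (15, 0.0791% of reads) were left out of host gene sums.

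Raw counts were tested with edgeR 4.0.16 (quasi-likelihood, two-sided, TMM, prior count 0.125) in R 4.3.3, over junctions or host genes with at least 3 reads in at least 3 libraries, with Benjamini-Hochberg adjustment over all tested. Fold of at least 2 and unadjusted p of at most 0.05 made a call; the study's text gives both 2 and 1.5 as fold thresholds and does not say whether p was adjusted, and 1.5 was an alternative. Shares were compared by exact permutation. Alternatives were RLE or no factors, edgeR's exact test, DESeq2 1.42.0, limma-voom (limma 3.58.1), other filters, prior counts and thresholds, a replicate block and single libraries left out. The fits were tested on simulated data. Replicates of a line differed beyond sampling noise (chi-square per degree of freedom 1.18 to 1.22), so no library was counted as a repeat of another. Between libraries of different lines it was 1.15 to 1.34, a range that takes in that of the replicates.

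Circles with at least 6 reads in all are given by library, others by gene and position. Likeness used the 3 host genes of highest r. The family, the lists and these rules were chosen with earlier results of these data known. Exons and sequences came from GENCODE 29 transcripts by exact span and spliced length, and no coordinates were converted. Antisense and overlapping transcripts cannot be told apart where strand use is not stated. Intervals cover counting error only.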

Additional observations from a re-analysis of the deposited data

How the results depend on the processing

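No alternative called an ABC circle or an ABC host gene, including DESeq2, no filter and each library left out; a filter of 10 reads in 3 libraries left no ABC circle to test. ABCC1 ran from 0.31 to 0.69 (log2, p 0.101 to 0.452), ABCC4 from 0.08 to 0.80 (p 0.0552 to 0.863) and hsa_circ_0000676 from -1.24 to -0.27. The near-zero value of hsa_circ_0038074 turned to 0.066 with DESeq2, 0.043 without a filter and 0.082 with the replicate block, and ran from -0.52 to 0.41 over single libraries left out, while hsa_circ_0030586 ran from -0.019 (without PANC-1 replicate 2) to 1.26. The cause was not tested.

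The family level difference of 8.46 per 10000 ran from 6.53 to 10.3 with single libraries left out and was 0.0596 over the 3 junctions that pass the filter (7.10 parental, 7.16 resistant). Nearly all of the difference thus lay in the 22 others, and the cause was not tested. The share difference of the top junction ran from -23.4 to -10.9 points in ABCC1 and from -2.93 to 17.1 in ABCC4. In ABCC1 the shares of the lines would overlap with the junctions listed only through PANC-1-GR libraries left out. After the data were seen, leave-one-out values were added for the count of junctions higher in PANC-1-GR (14 to 19), for the ABCC1 circles that start beyond exon 2 (difference 3.31 to 6.07 per 10000) and for the exon 2 share.

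For each junction, the deviation of the log2 level from the mean of its line was taken. Between same-numbered libraries of the 2 lines these deviations, not the levels, correlated at 0.0236, 0.0111 and 0.0114, under the 0.1 taken here as a sign of pairing. The study calls its cell lines paired without saying what links a pair, and the labels give numbers alone. With the replicate block, ABCC1 was 0.48 and ABCC4 0.56, with 0 ABC calls. Over all junctions the calls were 41, against 28 with the block, 14 with DESeq2, 124 without a filter, 6 with the filter of 10 reads and 21 with a prior count of 2. For host genes they were 40, against 35, 17, 82, 4 and 26.

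At 0 to 5 reads per circle and library, depth limits every single-circle comparison.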
